A study of Homo sapiens with 6 samples.

Results

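The AP-1 and early growth response (EGR) transcription factors were taken as the 10 genes with the symbols FOS, FOSB, FOSL1, FOSL2, JUN, JUNB, JUND, EGR1, EGR2 and EGR3, out of 60664 genes in the deposited count table, and all 10 were found. They were measured by mRNA sequencing in 6 libraries of cells labelled HCT8, an established human colorectal cancer line. The control group (genotype label WT) had received a control plasmid and the other group (genotype label KDM4A-overexpressing) a KDM4A overexpression plasmid, with 3 libraries in each and 1 batch number for all. KDM4A is a demethylase of histone H3 lysines, and the design asks which genes differ when its plasmid is given. The labels state neither the vector nor the time after transfection. They also do not say whether a group's 3 libraries are independent cultures, so every p-value here reflects library-to-library spread, which may be technical. Gene positions below are those of the deposited table (GRCh38.p13).

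AP-1 is a dimer of basic leucine zipper proteins that binds the DNA sequence TGANTCA. FOS proteins do not form stable dimers with one another and bind DNA through a JUN partner, whereas JUN proteins can also pair among themselves. EGR proteins are zinc finger factors that bind GC-rich sites. Most of these genes are immediate early genes: growth factor and stress signals switch them on through MAP kinases, acting on the CArG boxes that SRF binds and on cyclic AMP response elements (CREs), and their mRNAs and proteins turn over quickly. In colorectal epithelium the ERK branch of this pathway lies downstream of RAS and RAF, which are often mutated in tumours.

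The promoters of 5 members are shown because JUN went the other way from its relatives JUNB and JUND and from FOS and EGR1 (values below). Each runs 5′ to 3′ from 250 bases before to 50 bases after the start of the gene, from RefSeq on GRCh38.p14. They are JUN (chr1:58783998-58784297, minus strand), JUNB (chr19:12791236-12791535, plus strand), JUND (chr19:18281573-18281872, minus strand), FOS (chr14:75278578-75278877, plus strand) and EGR1 (chr5:138465229-138465528, plus strand). Capitals mark matches, on either strand, to 6 motifs: TGANTCA (AP-1), TGACGTCA (CRE), TGACG (the core of the CRE, which lies within every TGACGTCA), TGACATCA (the AP-1-like element known from the JUN promoter), the CArG box and GCGNGGGCG (EGR).
JUN: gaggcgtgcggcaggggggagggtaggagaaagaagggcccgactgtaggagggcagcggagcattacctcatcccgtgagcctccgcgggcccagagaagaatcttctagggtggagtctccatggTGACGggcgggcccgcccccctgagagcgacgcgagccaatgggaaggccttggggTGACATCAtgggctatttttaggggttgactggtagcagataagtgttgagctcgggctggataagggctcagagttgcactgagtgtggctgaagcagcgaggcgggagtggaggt
JUNB: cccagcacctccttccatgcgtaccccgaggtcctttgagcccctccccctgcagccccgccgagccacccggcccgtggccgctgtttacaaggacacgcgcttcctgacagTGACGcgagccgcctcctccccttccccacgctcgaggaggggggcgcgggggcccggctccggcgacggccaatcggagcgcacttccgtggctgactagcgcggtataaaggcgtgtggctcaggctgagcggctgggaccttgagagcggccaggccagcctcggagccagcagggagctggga
JUND: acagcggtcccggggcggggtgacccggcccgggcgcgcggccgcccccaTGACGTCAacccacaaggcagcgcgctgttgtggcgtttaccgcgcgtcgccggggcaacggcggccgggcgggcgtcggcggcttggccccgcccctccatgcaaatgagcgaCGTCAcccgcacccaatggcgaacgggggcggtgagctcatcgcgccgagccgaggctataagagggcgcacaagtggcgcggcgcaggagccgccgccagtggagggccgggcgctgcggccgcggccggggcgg
FOS: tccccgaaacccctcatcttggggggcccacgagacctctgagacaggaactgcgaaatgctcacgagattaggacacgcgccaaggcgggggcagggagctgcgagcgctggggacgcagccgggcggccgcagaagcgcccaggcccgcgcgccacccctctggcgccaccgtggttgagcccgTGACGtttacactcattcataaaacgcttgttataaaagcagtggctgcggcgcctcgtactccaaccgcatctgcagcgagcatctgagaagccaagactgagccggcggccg
EGR1: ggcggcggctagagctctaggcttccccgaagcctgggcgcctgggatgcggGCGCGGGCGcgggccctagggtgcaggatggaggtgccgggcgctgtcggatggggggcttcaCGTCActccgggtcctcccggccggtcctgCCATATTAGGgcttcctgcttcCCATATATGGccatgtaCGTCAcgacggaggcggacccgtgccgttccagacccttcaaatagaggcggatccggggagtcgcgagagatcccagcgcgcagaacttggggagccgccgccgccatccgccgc

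Promoters of 8 members were read; those of FOSL1 and EGR3 were not analysed here. The JUN promoter held TGACATCA at position -67 to -60 from the start, a motif present in 2.61% of the 35116 RefSeq promoters of the same length. No other member's promoter held it. JUND alone among the 8 held TGACGTCA (-200 to -193, against 1.85% of all promoters). CArG boxes lay in EGR1 (-105 to -96 and -83 to -74) and in 1 of the 3 EGR2 promoters (-71 to -62), against 1.29% of all promoters. An EGR motif was found in EGR1 (-198 to -190) and in another EGR2 promoter, against 9.43%. FOSL2 alone held TGANTCA (5 to 11 bases past the start, against 7.71%). All 8 genes held the TGACG core in at least 1 promoter, against 24.6% of all promoters, and in FOS it lay at -64 to -60 and in FOSB at -60 to -56. A TATAAA box, searched too but not in capitals, lay 25 to 33 bases before the start in FOS, FOSB and JUNB, against 11.5% of all promoters. These matches are letters in a window and do not show binding. Sites more than 250 bases before or 50 bases after the start were not searched. A missing match, such as a CArG box in FOS, therefore does not mean that the gene lacks the motif.

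**Figure D1:**
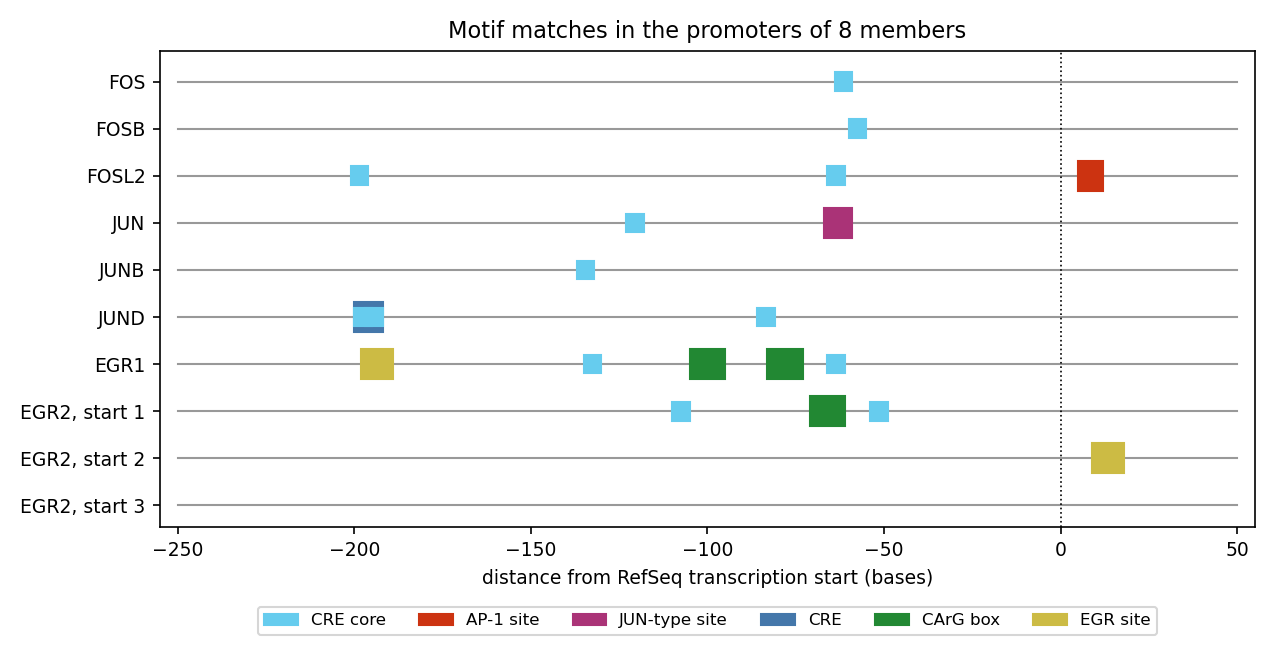
Motif matches in the RefSeq promoters of 8 members (rows; EGR2 has 3 starts), by distance from the transcription start in bases; block colour gives the motif. Within the window, from 250 bases before to 50 after the start, CArG boxes appear in EGR1 and EGR2, and the JUN-type site in JUN.

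The libraries held 14284240 to 23905980 counts, and 17147 genes were tested. KDM4A stood at 42.9, 45.9 and 45.3 CPM (counts over the TMM-adjusted library total) in the control libraries and at 152, 157 and 160 CPM in those given its plasmid (log2 fold change 1.81, SE 0.06, edgeR quasi-likelihood adjusted p = 7.16e-15); plasmid and native mRNA are not separated. Most genes differed: 78.6% passed an adjusted p of 0.05, 40% higher and 38.6% lower with the KDM4A plasmid, and in 79.7% the libraries of the groups did not overlap. Markers differed between the groups. The summed level of 15 colon epithelial markers was 267 to 282 CPM in controls and 3602 to 3861 CPM with the KDM4A plasmid. All 12 that could be tested were higher, and KRT20, CEACAM5 and GPA33 were under 0.3 CPM in every library. CDX1 (10 counts over the controls and 221 over the KDM4A plasmid libraries) and CEACAM6 (5 and 103) could be tested only through the latter. The tally of 12 is thus not independent of the filter on low counts. A sum was also taken over 12 genes, kidney developmental genes together with IRS4. It was 2078 to 2482 CPM in controls and 401 to 426 CPM with the KDM4A plasmid. Most of that sum was IRS4 (2151 ± 202 and 323 ± 7.90 CPM, SD, n = 3). Of 11 tested, 8 were lower and 2 higher. PAX8, among the higher, could be tested only through the KDM4A plasmid libraries (11 counts over the controls and 141 over these). Summed markers of fibroblasts (10 genes, 21.5 to 22.3 and 14.3 to 17.0 CPM), leukocytes (10 genes, 2.02 to 3.76 and 4.58 to 5.01 CPM) and endothelium (7 genes, 1.32 to 1.43 and 4.36 to 4.53 CPM) were low. That the libraries hold HCT8 cells rests on the labels, and the part of these marker differences in the results below was not tested. In such bulk RNA, fewer cells that express a gene and less RNA per cell cannot be told apart.

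All 10 members passed the filter on low counts and all 10 differed between the groups, 9 higher and 1 lower with the KDM4A plasmid (edgeR quasi-likelihood test, Benjamini-Hochberg adjusted over all genes), where 78.6% of all genes passed. Their median log2 fold change was 3.04, against 0.03 over all genes tested. EGR2, with 6, 3 and 6 counts in controls, met the minimum count of 10 only in the KDM4A plasmid libraries. Its place among the higher genes is thus not independent of the filter. Of all genes, 16.4% passed and were at least 2-fold higher, as was true of each of the 9 members that rose. The smallest of their fitted folds was that of JUND, 3.32, which was 1.69 and did not pass with GC and length trends removed (edgeR adjusted p = 0.0849). In 9 members every KDM4A plasmid library was above every control (40.4% of all genes), and in JUN every one was below (39.3%).

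**Figure D2:**
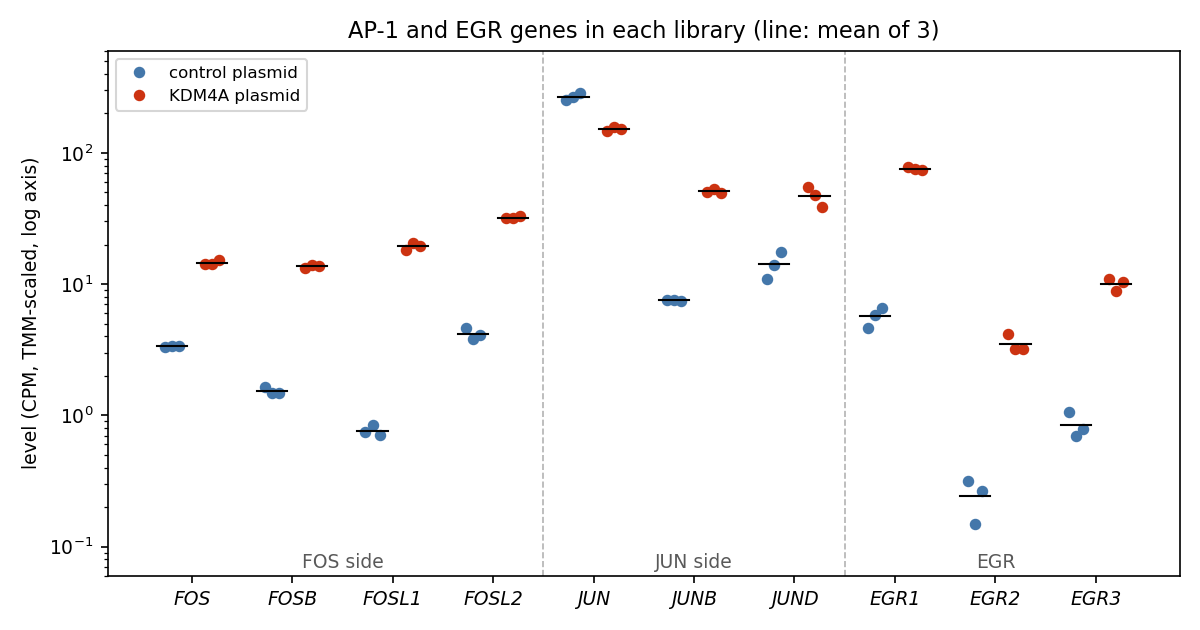
Level of each member (CPM, log axis) in each library, control plasmid in blue and KDM4A plasmid in red; lines are means of 3 libraries. JUN is lower and every other member higher with the KDM4A plasmid, with no overlap between the groups.

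The 4 FOS genes all rose, FOSL1 by the most. FOSL1 (ENSG00000175592, chromosome 11, 65892049 to 65900573, minus strand) encodes FRA-1, a FOS relative without the C-terminal activation domain of FOS that is known from invasive epithelial tumours. It stood at 0.740, 0.840 and 0.702 CPM in the control libraries, from 14, 17 and 16 counts, and at 18.1, 20.5 and 19.6 CPM in the KDM4A plasmid libraries. Every KDM4A plasmid library was far above every control. The log2 fold change of FOSL1 was 4.67 (SE 0.14, edgeR adjusted p = 5.83e-15), higher than that of 98.8% of all genes tested. With GC and length trends removed, the fitted rise was 16.1-fold in place of 25.4-fold.

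FOSB (ENSG00000125740, chromosome 19, 45467995 to 45475179, plus strand) is induced briefly in most cells. It was at 1.64, 1.48 and 1.49 CPM in controls and at 13.2, 14.0 and 13.8 CPM with the KDM4A plasmid. Its log2 fold change was 3.15 (SE 0.13, edgeR adjusted p = 2.43e-13). FOSL2 (ENSG00000075426, chromosome 2, 28392448 to 28417317, plus strand) encodes FRA-2. It was at 4.65, 3.80 and 4.12 CPM in controls and at 31.7, 31.8 and 32.7 CPM with the KDM4A plasmid, and the KDM4A plasmid libraries lay close together. Its log2 fold change was 2.93 (SE 0.09, edgeR adjusted p = 1.18e-14). FOS (ENSG00000170345, chromosome 14, 75278826 to 75282230, plus strand), the prototype immediate early gene, had the smallest rise of the 4. It was at 3.33, 3.36 and 3.38 CPM in controls and at 14.1, 14.3 and 15.2 CPM with the KDM4A plasmid (log2 fold change 2.11, SE 0.11, edgeR adjusted p = 5.51e-12). FOSB lies opposite ERCC1 on the other strand, and since the strand setting is not given, reads in the overlap cannot be assigned by strand; ERCC1 had 1162 counts over the controls and 2697 over the KDM4A plasmid libraries.

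The makeup of the FOS genes changed. Per exon length, FOS held 51.9% ± 1.41 of the summed FOS-gene level in controls (SD, n = 3) and 25.9% ± 0.862 with the KDM4A plasmid. FOSL1 held 14.5% ± 1.42 in controls and 42.7% ± 1.34 with the KDM4A plasmid. Neither share overlapped between the groups. FOSB kept close to the same share (13.2% ± 0.493 and 13.6% ± 0.131), and FOSL2 held 20.3% ± 1.73 and 17.9% ± 0.547.

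The JUN genes split. JUN (ENSG00000177606, chromosome 1, 58776845 to 58784048, minus strand), a strong activator, was by far the most abundant member in controls, at 252, 266 and 286 CPM. It was at 148, 157 and 152 CPM in the KDM4A plasmid libraries. Each KDM4A plasmid library was below each control, and the log2 fold change was -0.81 (SE 0.06, edgeR adjusted p = 4.85e-10), lower than that of all but 18.4% of genes. JUN was 1.76-fold lower by this fit.

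JUNB (ENSG00000171223, chromosome 19, 12791486 to 12793315, plus strand) is a weaker activator that can restrain JUN at some targets. It was at 7.61, 7.56 and 7.42 CPM in controls and at 50.3, 52.9 and 49.4 CPM with the KDM4A plasmid. Its libraries agreed closely within each group, and the log2 fold change was 2.76 (SE 0.07, edgeR adjusted p = 1.27e-15). With GC and length trends removed, the fitted rise of JUNB was 3.81-fold in place of 6.77-fold. JUNB lies opposite HOOK2, which had 720 counts over the controls and 1631 over the KDM4A plasmid libraries.

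JUND (ENSG00000130522, chromosome 19, 18279694 to 18281622, minus strand) is usually transcribed at a steady rate. It was at 10.9, 14.0 and 17.5 CPM in controls and at 54.5, 48.1 and 38.7 CPM with the KDM4A plasmid. It spread widely for its level, with a coefficient of variation of 23.5% in controls and 16.8% with the KDM4A plasmid, but the groups did not overlap. Its log2 fold change was 1.73 (SE 0.17, edgeR adjusted p = 9.37e-06). JUND has the most GC-rich transcript of the 10 members (69.7% GC), and with GC and length trends removed its log2 fold change was 0.76 (SE 0.31, edgeR adjusted p = 0.0849), which does not pass.

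**Figure D3:**
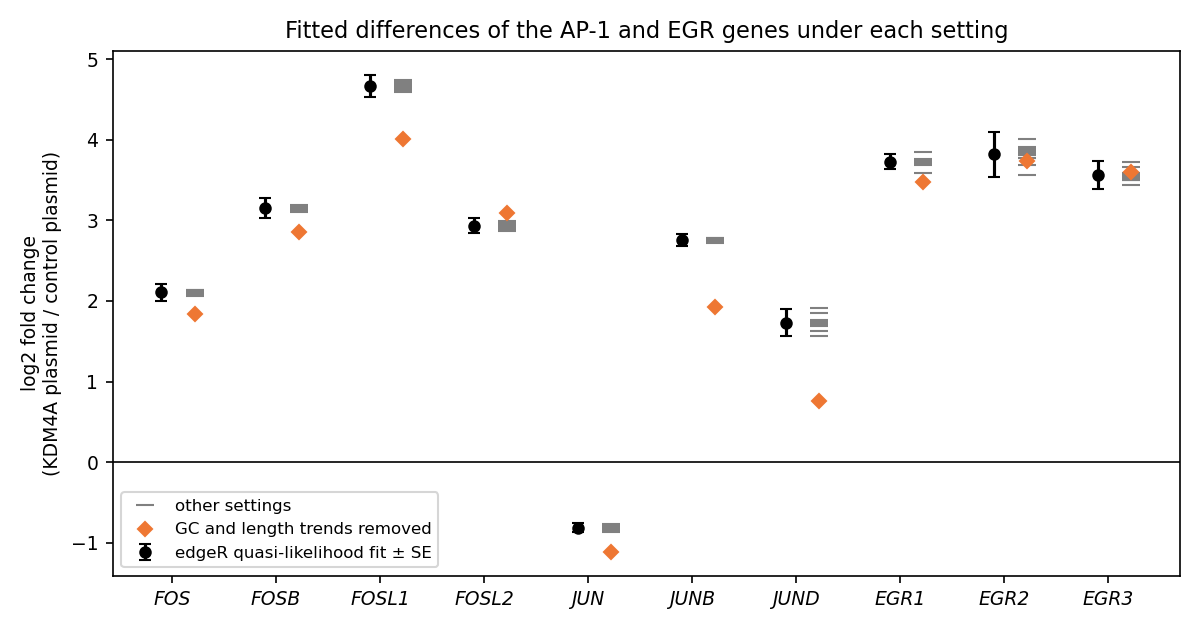
Fitted log2 fold change of each member (black, ± SE), with 14 other settings (grey) and the fit with GC and length trends removed (orange). JUND moves most, from 1.73 to 0.76; no member changes sign.

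Set against each other, the FOS genes gained on the JUN genes. The summed FOS-gene level was 3.14, 3.05 and 3.03 RPKM (CPM per kilobase of exon) in controls and 25.6, 27.3 and 27.3 RPKM with the KDM4A plasmid, 8.69 times the control mean. The summed JUN-gene level was 87.0, 93.0 and 101 RPKM in controls and 101, 102 and 93.9 RPKM with the KDM4A plasmid, and these groups overlapped. The control libraries thus held 27.7, 30.5 and 33.4 times as much JUN-gene as FOS-gene mRNA per length, and the KDM4A plasmid libraries 3.95, 3.75 and 3.44 times as much. On the log2 scale the FOS to JUN ratio went from -4.93 ± 0.135 to -1.89 ± 0.101 (SD, n = 3), a difference of 3.04 given without a test, because the genes were chosen with results known. Leaving JUN out reduced that difference to 0.92.

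The makeup of the JUN genes changed too. JUN held 88.7%, 87.8% and 87.0% of the summed JUN-gene level in controls and 44.9%, 47.3% and 49.8% with the KDM4A plasmid. JUNB went from 4.41% ± 0.384 to 28.1% ± 0.801 and JUND from 7.75% ± 1.25 to 24.6% ± 3.27 (SD, n = 3). With GC and length trends removed the sums were no longer alike, at 107 ± 10.9 RPKM in controls and 80.6 ± 6.34 RPKM with the KDM4A plasmid, and the log2 difference in the FOS to JUN ratio was 3.22. Whether the JUN-gene total differed therefore depends on that correction, which was added after the data were seen.

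**Figure D4:**
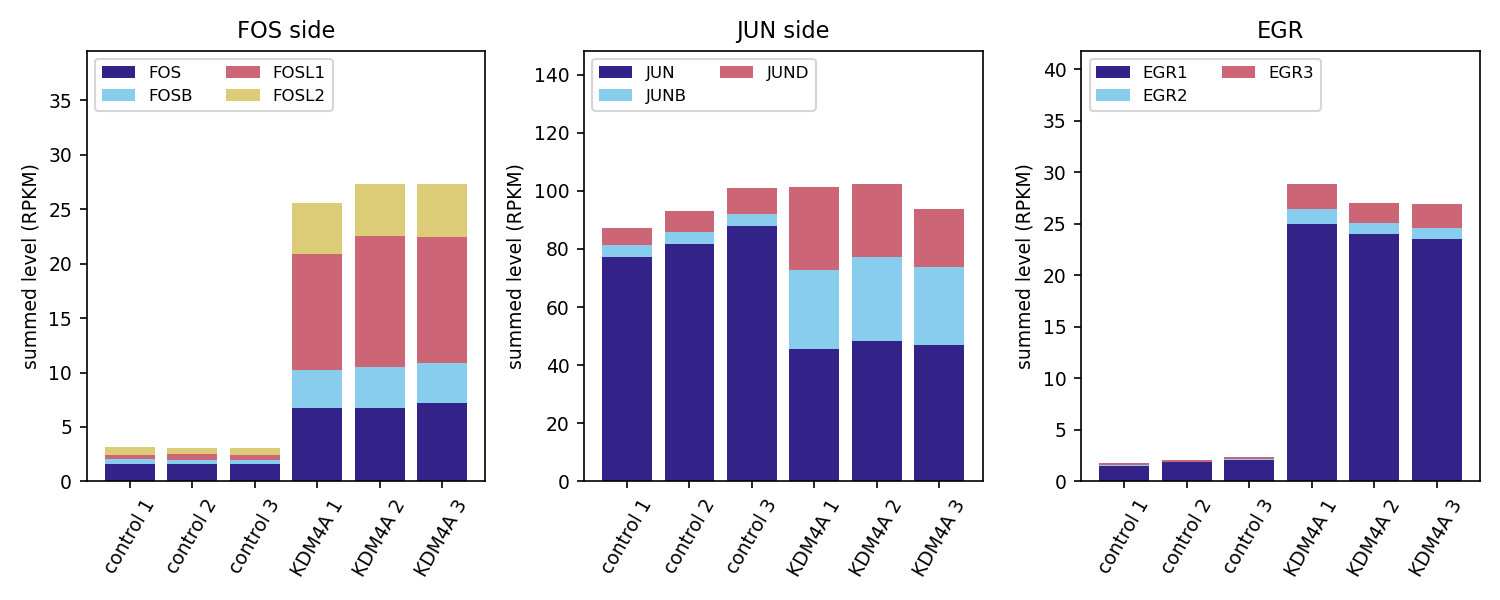
Summed level (RPKM) of the FOS, JUN and EGR genes in each library, stacked by gene; the vertical scales differ. JUN-gene sums overlap between groups as plotted, with a smaller share for JUN and larger shares for JUNB and JUND. With GC and length trends removed the sums no longer overlap, and the JUND rise does not pass. FOSL1 becomes the largest FOS-gene share.

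The 3 EGR genes rose, by 3.56 to 3.82 on the log2 scale. EGR1 (ENSG00000120738, chromosome 5, 138465479 to 138469303, plus strand) responds within minutes to growth signals. It was at 4.60, 5.78 and 6.63 CPM in controls and at 78.4, 75.2 and 73.9 CPM with the KDM4A plasmid. Its log2 fold change was 3.73 (SE 0.09, edgeR adjusted p = 2.67e-16). Its promoter, printed above, is the one with a pair of CArG boxes.

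EGR2 (ENSG00000122877, chromosome 10, 62811996 to 62919900, minus strand), best known from myelinating Schwann cells, rested on 6, 3 and 6 counts in the control libraries, or 0.317, 0.148 and 0.263 CPM. It was at 4.19, 3.18 and 3.18 CPM with the KDM4A plasmid, and the log2 fold change was 3.82 (SE 0.28, edgeR adjusted p = 8.16e-10). EGR3 (ENSG00000179388, chromosome 8, 22687659 to 22693480, minus strand) is a relative of EGR1 known from muscle spindles and T cells. It was at 1.06, 0.692 and 0.790 CPM in controls and at 10.9, 8.85 and 10.4 CPM with the KDM4A plasmid. Its log2 fold change was 3.56 (SE 0.17, edgeR adjusted p = 3.32e-12). The makeup of the EGR genes stayed alike, where EGR1 made up 86.7% ± 4.86 of the summed RPKM in controls and 87.7% ± 1.05 in the other group (SD, n = 3). The sums themselves were 1.81, 2.05 and 2.38 RPKM in controls and 28.8, 27.0 and 26.9 RPKM with the KDM4A plasmid.

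Ordered by level per length, the controls ran JUN (82.2 ± 5.36 RPKM), JUND (7.32 ± 1.72), JUNB (4.11 ± 0.0552), EGR1 (1.81 ± 0.325), FOS (1.60 ± 0.0119), FOSL2, FOSL1, FOSB, EGR3 and EGR2 (0.0815 ± 0.0290 RPKM). EGR1 and FOS overlapped there, as did FOSL1 and FOSB. With the KDM4A plasmid the order was JUN (46.8 ± 1.48 RPKM), JUNB (27.8 ± 0.993), JUND (24.4 ± 4.10), EGR1 (24.2 ± 0.745), FOSL1 (11.4 ± 0.715), FOS (6.91 ± 0.267), FOSL2, FOSB, EGR3 and EGR2 (1.18 ± 0.196 RPKM). JUND overlapped with both JUNB and EGR1, and the other neighbours stood apart. JUN led in both groups, and FOSL1 went from rank 7 to rank 5.

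Genes around these factors did not move as one. Of 23 bZIP genes whose proteins can pair with FOS or JUN proteins or compete for their sites, 12 rose, 9 fell and 2 did not pass, with a median log2 fold change of 0.15. MAFF, a small MAF protein without an activation domain, was at 3.86 ± 0.540 CPM in controls and 31.8 ± 0.931 CPM in the other group (SD, n = 3), and its log2 fold change was 3.03 (SE 0.10). BATF, which pairs with JUN proteins, rose by 2.79 (SE 0.45), from 6 counts over the controls and 39 over the KDM4A plasmid libraries. BATF passed the filter on low counts only through the KDM4A plasmid libraries, so its place among the 12 is not independent of the filter. MAF (-1.60, SE 0.08) and the ATF2 relative CREB5 (-1.42, SE 0.07) fell. With GC and length trends removed, the log2 fold changes were smaller for MAFF (2.38), BATF (2.06) and CREB5 (-0.59), and all still passed. Each of these calls is from edgeR's quasi-likelihood test at an adjusted p under 0.05, against 40% of all genes called higher and 38.6% lower.

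Regulators upstream of the promoters were called in both directions at shares near those of all genes (40% higher and 38.6% lower), so their counts set them apart in neither direction. Of 9 SRF and ETS-family regulators, 8 were tested, 3 rose, 3 fell and 2 did not pass (median 0.05). ETS1 (2.50, SE 0.16) and ETS2 (1.18, SE 0.06) rose. The SRF coactivator MRTFB (-0.67, SE 0.06) and the SRF partner ELK4 (-0.45, SE 0.06) fell. With GC and length trends removed, however, ELK4 stood at 0.51, and MRTFB stood at 0.0021 and did not pass (edgeR adjusted p = 0.968). Of 28 RAS, RAF and MAP kinase pathway genes, 10 rose, 13 fell and 5 did not pass (median -0.04). The p38 kinases MAPK11 (2.02, SE 0.15) and MAPK13 (1.95, SE 0.08) rose most, with 1.34 and 2.13 in turn when GC and length trends were removed, and the p38 activator MAP2K6 (-1.15, SE 0.07) and the kinase RPS6KA5 (-1.07, SE 0.07) fell most. By the same correction, neither MAP2K6 (-0.10, edgeR adjusted p = 0.143) nor RPS6KA5 (0.18, edgeR adjusted p = 0.0682) passed, and 8 genes of the list were lower.

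Other immediate early genes mostly rose with the members. Of 23 on the list, 22 were tested, 18 rose, 3 fell and 1 did not pass (median 0.97), against 40% of all genes higher and 38.6% lower. IER3, a survival and stress gene, went from 7.46 ± 0.674 to 192 ± 5.63 CPM (4.68, SE 0.07, and 4.02 with GC and length trends removed), and CCN2, a matrix protein gene, rose by 5.10 (SE 0.08). The genes that fell were MYC (-0.75, SE 0.05), ATF3 (-0.57, SE 0.06) and NR4A3 (-0.51, SE 0.13), the last named after its values were seen. NR4A3 did not pass with GC and length trends removed (-0.16, edgeR adjusted p = 0.225). ATF3 encodes a JUN partner and went from 63.8 ± 1.71 to 43.0 ± 2.65 CPM. EGR4, the remaining EGR gene, had too few counts to be tested, with 2 over the controls and 17 over the KDM4A plasmid libraries, a ratio of 9.58 (95% binomial interval 2.27 to 85.5, counting error only, without the spread between libraries).

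Of 24 genes known as AP-1 targets, 9 had too few counts to be tested, and of the other 15, 14 rose and 1 fell (median 2.72). Over all genes tested, 40% were called higher and 38.6% lower. CXCL8, a neutrophil chemokine, went from 2.22 ± 0.364 to 141 ± 2.03 CPM (5.98, SE 0.09). MMP7, a matrix protease of colorectal tumours, had 2 counts over the controls and 200 over the KDM4A plasmid libraries, a ratio of 113 (95% binomial interval 30.8 to 937, counting error only, without the spread between libraries). VEGFA fell by 0.48 on the log2 scale (SE 0.05). The keratinocyte AP-1 target IVL had 0 counts, and MMP1, a classic target, had 2 and 3 counts in the control and KDM4A plasmid groups, both named after their values were seen. Genes at low counts enter the test through the group in which they are high, as MMP7 did, so these counts are not independent of the filter.

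**Figure D5:**
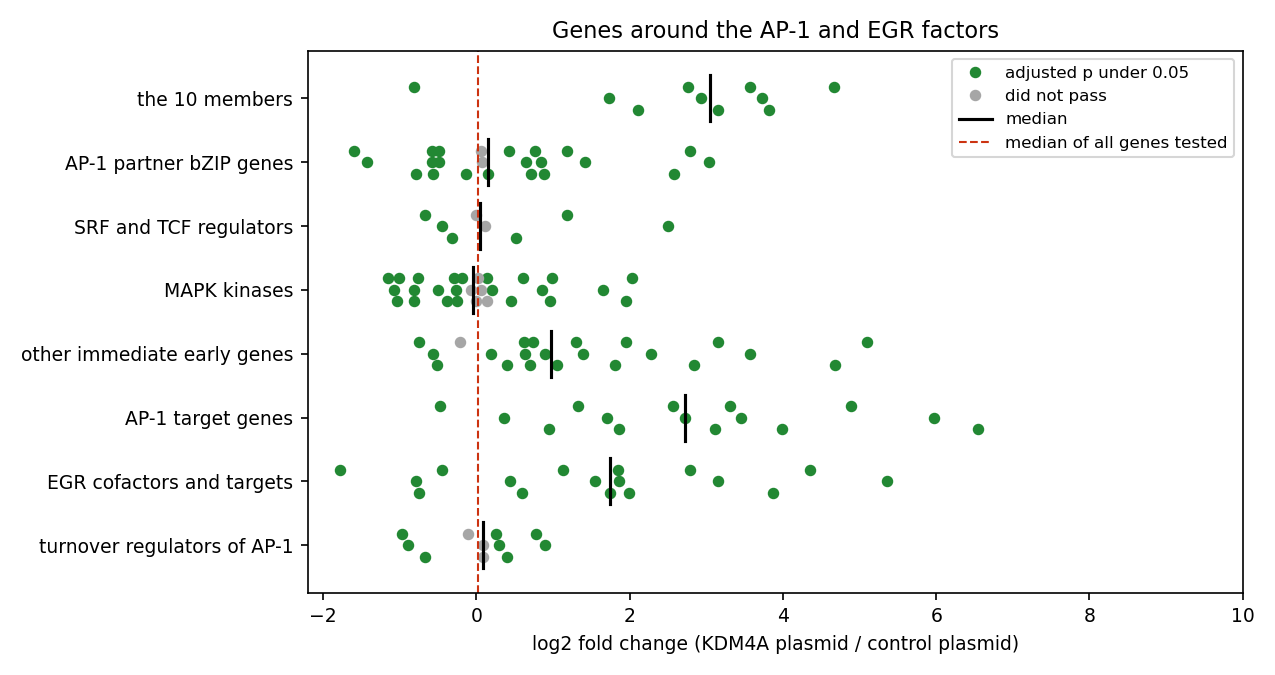
Log2 fold changes of the 10 members and of the genes in 7 lists around them; green points passed the test, grey did not, and black bars are medians. The medians of AP-1 targets (2.72) and EGR targets (1.74) lie to the right of that of all genes (0.03, dashed). Those of the kinases and partners lie close to it. Genes with too few counts to be tested are not shown, and the lists were chosen with earlier results of these data known.

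Of 20 EGR cofactors and targets, 17 were tested, 13 rose and 4 fell (median 1.74), against 40% of all genes higher and 38.6% lower. The 17 were those with enough counts, so this tally is not independent of the filter. Like the other lists, this one was chosen with earlier results of these data known. ICAM1, an adhesion receptor, rose by 5.35 (SE 0.08) and THBS1, a matrix glycoprotein, by 4.35 (SE 0.08). The growth factor FGF2 (-1.78, SE 0.08) and the VEGF receptor FLT1 (-0.78, SE 0.08) fell, with -0.97 and -0.24 in turn when GC and length trends were removed. NAB2, an EGR corepressor that EGR1 itself induces, went from 16.8 ± 0.727 to 49.1 ± 2.21 CPM (1.55, SE 0.07), whereas its relative NAB1 went from 60.4 ± 1.57 to 44.2 ± 0.808 CPM (-0.45, SE 0.05), both named after their values were seen. With GC and length trends removed, NAB2 stood at 0.90 and NAB1 turned to 0.10 (edgeR adjusted p = 0.0423), so the direction of NAB1 depends on that correction. Of 11 regulators of the turnover of these mRNAs or proteins, 5 rose, 3 fell and 3 did not pass (median 0.09). Beside the same shares of all genes, these counts do not set the list apart. The mRNA decay factors ZFP36L1 (0.89, SE 0.06) and ZFP36L2 (0.78, SE 0.07) rose. FBXW7 (-0.97, SE 0.06) and ITCH (-0.89, SE 0.06), ubiquitin ligase genes whose proteins mark JUN for degradation, fell. ITCH was at -0.13 and FBXW7 at -0.57 with GC and length trends removed, and 5 genes of the list were lower in place of 3.

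By distance between centred log2(CPM + 0.5) profiles over the 6 libraries, the protein-coding genes most like FOSL1 among 12899 were SLC38A5, an amino acid transporter gene (distance 0.12), PLPP2, a lipid phosphatase gene (0.15), and ST14, which encodes the protease matriptase (0.16). Their levels went from 1.02, 0.839 and 8.07 CPM in controls to 23.3, 21.6 and 144 CPM. Those most like JUN were TMEM167B (distance 0.06), the zinc transporter gene SLC39A8 (0.07) and ZFAND1 (0.08), with log2 fold changes of -0.84, -0.81 and -0.77. This likeness is over 2 groups of 3 libraries only.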

How the data were processed

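Illumina mRNA libraries were made from Trizol-extracted RNA, per the labels' protocols. The authors deposited a table of unnormalized read counts, with exon lengths and GRCh38.p13 locations per the file headers. HISAT2, HTSeq and GRCh38 are named in the submitters' processing notes; no versions or strand setting are stated there. All count columns matched a sample (0 left over).

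From the deposited counts, filterByExpr (minimum count 10) kept 17147 genes with 99.8% to 99.9% of the counts. TMM factors were 0.970 to 1.03. The groups were compared with edgeR 4.0.16 (quasi-likelihood, robust, no covariate; R 4.3.3), adjusted p is Benjamini-Hochberg over all genes kept (threshold 0.05), and SE is that of the log2 fold change, from the F statistic. RPKM is CPM per kilobase of deposited exon length. Within groups, chi-square over its degrees of freedom was 1.43 to 9.44, above sampling noise. That does not show whether the libraries are independent cultures, and each library was treated as 1 replicate. The procedure was tested on simulated data in which only a few genes differed, whereas 78.6% of genes passed here. That test does not cover so wide a difference. The members and lists were chosen with earlier results of these data known. Named genes were the members, KDM4A, the 2 largest rises and falls among passing genes of each list, and the 3 nearest profiles to FOSL1 and JUN. Alternatives were a replicate block, DESeq2 1.42.0, limma-voom (limma 3.58.1), RLE, upper quartile or no factors, no filter, a filter of 1 CPM in 3 libraries, and leaving out each library. Added after the data were seen was the removal of per-library trends with GC content (GENCODE v29 transcripts, 99.1% of tested genes) and exon length.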

Additional observations from a re-analysis of the deposited data

How the results depend on the processing

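All 10 members kept their direction under the 15 other settings, and 9 of them kept an adjusted p under 0.05 in each. The exception was JUND, whose log2 fold change was 0.76 (adjusted p = 0.0849) with GC and length trends removed. Leaving out each library gave 9 members higher and 1 lower each time. Removing GC and length trends moved the number of genes lower to 8 among the MAP kinase pathway genes. It became 2 among AP-1 targets and 5 among turnover regulators. ELK4 (0.51) and NAB1 (0.10) turned positive and passed. MRTFB (0.0021, edgeR adjusted p = 0.968) and RPS6KA5 (0.18, edgeR adjusted p = 0.0682) no longer passed. The cause was not tested. The log2 difference in the FOS to JUN ratio was 3.22 on CPM, 3.22 with those trends removed, 2.46 without FOSL1 and 0.92 without JUN, and 2.97 to 3.10 when a library was left out.

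Same-numbered libraries did not vary together (correlations of deviations -0.15, 0.03 and -0.09). Only control library 2 correlated best with its own number in the other group, and no KDM4A plasmid library did. With a replicate block, 9 members were higher and 1 lower, and 6741 and 6501 of all genes were called higher and lower. Low control counts limit EGR2, EGR3 and FOSL1 most.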
